A study of Mus musculus with 4 samples.

Results

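Osteoclasts are the bone-resorbing cells that form when macrophage precursors fuse. The 8 genes described here mark the steps of that lineage: the receptor RANK (Tnfrsf11a), the transcription factors Mitf and Nfatc1, the fusion proteins Dcstamp and Ocstamp, the proton pump subunit Atp6v0d2, and the enzymes Acp5 and Ctsk. They were taken by gene name from the peak lists of both genotypes and from the tables of differential peaks, and they are 8 of the 13035 genes named in either list. All 8 had a peak in the KO list, which holds 89.6% of those genes, and 6 had one in the WT list, which holds 75.8%. The 6 genes of the WT list were all in the KO list too, as were 86.2% of WT genes, and 4 of them had a differential peak.

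The data are m6A-seq of bone-marrow-derived macrophages from C57BL/6 mice, kept in M-CSF (macrophage colony-stimulating factor) for 7 days. In this assay poly(A) RNA is fragmented and the fragments that carry N6-methyladenosine (m6A) are precipitated with an antibody (IP) and sequenced beside untreated fragments (input). WT cells were Mettl3fl/fl, with floxed alleles of the m6A-writing enzyme and no Cre, and KO cells were LysM-cre, Mettl3fl/fl, in which the lysozyme 2 promoter drives Cre in cells of the myeloid line. The 4 libraries are 1 IP and 1 input for each genotype, so no difference below has a replicate check, and the p-values behind the authors' false discovery rates compare the reads of these libraries. Read totals are not given in the sources used here, so the depth is unknown.

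In osteoclast formation, M-CSF keeps precursors alive and induces RANK, and RANK ligand then starts the programme. RANK signals through TRAF6 to NF-κB and AP-1, which raise NFATc1, and NFATc1 acts with MITF and PU.1 on the genes for fusion, acid secretion and matrix digestion. The labels name M-CSF as the only factor added, so these are macrophage cultures in which the lineage genes were read without a stated osteoclast stimulus. Genes for the macrophage surface and lysosome were abundant, with Cd68 at 1029 FPKM in WT input and 994 in KO input and Adgre1 at 247 and 269. FPKM is a fragment count divided by the transcript's length and by the library's mapped fragments. Of the osteoclast markers outside the 8 genes, Calcr had no peak in either list, Mmp9 had 1 in the KO list, and the only peak named for Oscar lay in Tfpt. Loss of the Mettl3 transcript could not be checked, since its input level was not analysed here.

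Named for the 8 genes were 14 peaks in the WT list and 15 in the KO list. The authors' annotation put 10 of the WT peaks in 3′ UTRs, 3 in other exons and 1 in a 5′ UTR, and 14 of the KO peaks in 3′ UTRs and 1 in a 5′ UTR. These parts are labels and not always positions in the named gene: 1 of the 14 lies in Arnt, next to Ctsk, and 1 lies 17431 bases before the end of Mitf. KO peaks labelled 3′ UTR also cover WT exon peaks. They hold all 181 bases of the WT peak in exon 9 of Nfatc1. They also hold 390 of the 660 bases of the WT peak in exon 5 of Tnfrsf11a. The lack of exon labels in KO is therefore not a loss of all exon peaks. At least 1 exonic base was shared with the other genotype by 12 of 14 WT peaks (85.7%), beside 73.4% of all WT peaks, and by 10 of 15 KO peaks (66.7%), beside 61.6% of all KO peaks. The false discovery rate of the peak itself was 0.05 or more for 4 of the 14 WT peaks (29.8% of all WT peaks) and for 2 of the 15 KO peaks (35.1% of all KO peaks). The median enrichment of the members' peaks was 2.48-fold over input in WT and 2.36-fold in KO, against 3.74 and 3.15 over the whole lists. By fold alone the genes ranged from Tnfrsf11a, Mitf and Ocstamp down to Nfatc1, Atp6v0d2 and Acp5. The false discovery rate of the peak gave another order: in WT it was 0.011 for Ocstamp and 1.58e-13 for Atp6v0d2. Enrichments are the authors' values per peak, and since peaks differ in extent between the lists, differences between genotypes are taken from the authors' differential table.

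**Figure D1:**
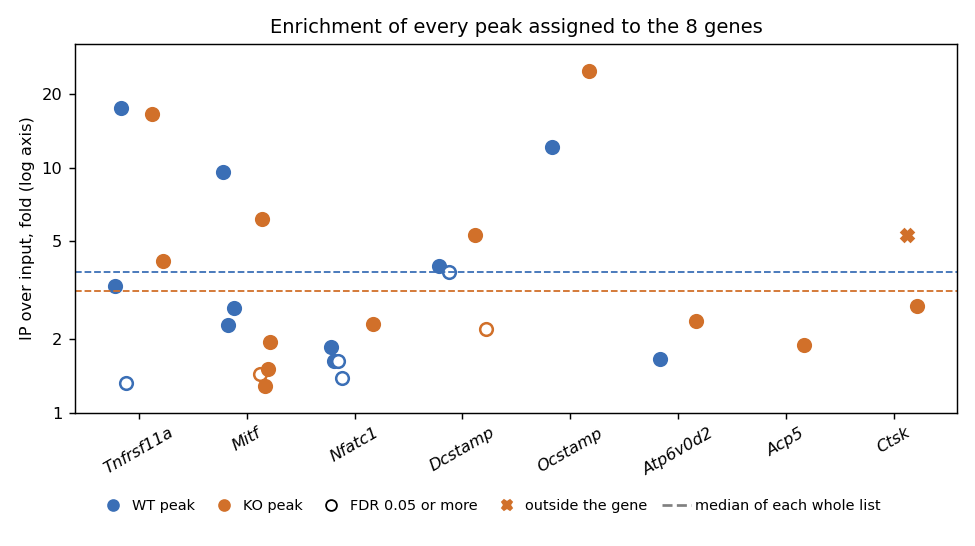
Fold enrichment of IP over input (log axis) of each peak named for the 8 genes, WT in blue and KO in orange, with open circles for a false discovery rate of 0.05 or more, a cross for the peak outside its gene, and dashed lines at the median of each whole list (3.74 in WT, 3.15 in KO). Tnfrsf11a, Mitf and Ocstamp hold the WT peaks of highest fold, and Acp5 and Ctsk have KO peaks alone.

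Of the 9 differential peaks of these genes, 6 were lower and 3 were higher in KO (66.7% lower, beside 69.6% of all 6050 peaks in the authors' deposited table). That share is near the background and is not a result about these genes. The 6 lower peaks all had a false discovery rate under 0.05, as did 2 of the 3 higher ones, and 57% of all peaks in the authors' deposited table were lower and 22.6% higher at that rate. In 3′ UTRs 5 of the 7 members' peaks were lower, beside 63.2% of all 3′ UTR peaks in the authors' deposited table, and elsewhere 1 of 2, beside 86.5%. Of the 6 genes with peaks in both lists 4 had a differential peak, beside 49.6% of all such genes. The median log2 ratio of KO over WT was -0.36 over the 9 peaks and -0.40 over the authors' deposited table. Against that table median, 3 of the 9 lay below and 6 above.

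Tnfrsf11a encodes RANK, the receptor for RANK ligand. It held the most strongly enriched WT peak of the 8 genes, and its peaks went both ways between genotypes. The gene (ENSMUSG00000026321) lies on chromosome 1 from 105780673 to 105849444 on the plus strand (GRCm38, the assembly also called mm10). Its main WT peak ran from 105825389 to 105845228 over 3 exonic blocks of 1467 bases in all and was 17.5-fold enriched, above 92.8% of WT peaks. The KO peak there, from 105821503 to 105845198, covered 1437 of these bases and reached further upstream, over 4 blocks in all. Its enrichment over that longer stretch was 16.6-fold, above 95.7% of KO peaks, and it shared 1827 of its 1915 exonic bases with WT peaks. This is the same site in both genotypes, with a modest difference: the log2 ratio was -0.38 in the authors' deposited table (0.768 of WT, false discovery rate 6.76e-05).

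Upstream of that site, a WT peak of Tnfrsf11a from 105814348 to 105825300, annotated to exon 5 of 10, was 3.29-fold enriched. The KO list had no separate peak there, but 390 of its 660 exonic bases lay in the long KO peak. The differential peak of this stretch (105817703 to 105825180) had a log2 ratio of -0.97 by the authors' deposited table (0.512 of WT, false discovery rate 4.37e-06). It was the lowest ratio among the 8 genes, and 10.8% of all peaks in the authors' deposited table were lower.

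Downstream, in the distal 3′ UTR of Tnfrsf11a, each list had a peak that the other lacked. The WT peak from 105846545 to 105846694 was weak, 1.32-fold with a false discovery rate of 0.108. The KO peak from 105847682 to 105847981, which ended 1463 bases before the end of the gene, was 4.17-fold enriched with a false discovery rate of 9.77e-08. The differential peak there (105847712 to 105847921) stood at 1.33 in the authors' deposited table, 2.51 times WT, with a false discovery rate of 0.010. It was the highest ratio among the 8 genes and above 96.9% of all peaks in the authors' deposited table. Within RANK mRNA, then, the exonic peak and the main peak were lower in KO and the distal peak was higher. The 3 ratios share 1 pair of input libraries, in which Tnfrsf11a had levels of 10.7 FPKM (WT) and 10.8 (KO).

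Mitf, a basic helix-loop-helix factor that binds the promoters of Acp5 and Ctsk, had 4 differential peaks, all lower in KO. Of the 8 genes only Mitf and Tnfrsf11a had more than 1. The gene (ENSMUSG00000035158) lies on chromosome 6 from 97807002 to 98021360 on the plus strand. The strongest Mitf peak, from 98003958 to 98018985 in WT, covered 1558 exonic bases at 9.63-fold enrichment, and the KO peak from 98010453 to 98018985 covered 1378 bases at 6.16-fold. All 1378 bases of the KO peak lay inside the WT peak. The differential peak there stood at -0.41 in the authors' deposited table (0.755 of WT, false discovery rate 3.09e-09).

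The distal 3′ UTR of Mitf showed the same order at lower enrichment. A WT peak from 98019703 to 98020541 was 2.28-fold enriched over 839 bases, and the KO list broke this stretch into peaks of 150 bases (98019823 to 98019972, 1.29-fold) and 270 bases (98020122 to 98020391, 1.51-fold). The differential peaks there had log2 ratios of -0.76 and -0.36 by the authors' deposited table, with false discovery rates of 0.0002 and 0.0355. These 2 ratios lie within a single WT peak and are not separate WT sites. The last WT peak, from 98020631 to 98021349, was 2.67-fold enriched, its KO counterpart from 98020810 was 1.94-fold, and the differential peak stood at -0.36 in the authors' deposited table (false discovery rate 0.0043). A further KO peak over 211 exonic bases, from 97994393 to 98003929, was 1.44-fold with a false discovery rate of 0.079. Over the gene, WT peaks covered 3116 exonic bases and KO peaks 2549, and 91.7% of the KO bases were also WT bases. Of the 4 ratios, -0.41 and -0.76 were below the median of the authors' deposited table (-0.40) and the other two, -0.36 each, were above it.

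Nfatc1, the transcription factor that drives osteoclast differentiation, had only weak peaks under its own name. The gene (ENSMUSG00000033016) lies on chromosome 18 from 80606205 to 80713071 on the minus strand. The WT list had 4 peaks of Nfatc1, with enrichments of 1.85 (80607285 to 80607645), 1.63 (80607705 to 80635434), 1.63 (80635674 to 80635854, exon 9 of 10) and 1.38 (80697788 to 80697998, exon 2 of 10). The peaks in exons 9 and 2 had false discovery rates of 0.108 and 0.121. The KO list had 1 peak, from 80607795 to 80635974, over 840 exonic bases at 2.30-fold. The single differential peak (80635704 to 80635914, exon 9 of 10) stood at 0.75 in the authors' deposited table, 1.69 times WT, with a false discovery rate of 0.072. It did not reach 0.05.

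The difference between 4 WT peaks and 1 KO peak in Nfatc1 follows gene names and not positions alone. The distal 3′ UTR of Nfatc1 also holds peaks that the authors' annotation gave to the predicted gene Gm41790. In WT this was a peak from 80606205 to 80607045 at 2.72-fold, and in KO there were peaks from 80606205 to 80606655 at 2.71-fold and from 80607225 to 80607525 at 2.26-fold. Their false discovery rates were 5.01e-11, 1.29e-08 and 0.00041 in that order. The WT and KO peaks at the very end of the gene both ended at its last base. The KO peak at 2.26-fold shared 241 bases with the WT Nfatc1 peak at 1.85-fold, so that WT site was present in KO under the other name. Only the WT peak in exon 2 had no KO peak at its position. None of the peaks named for Gm41790 in this gene had an entry in the differential table.

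**Figure D2:**
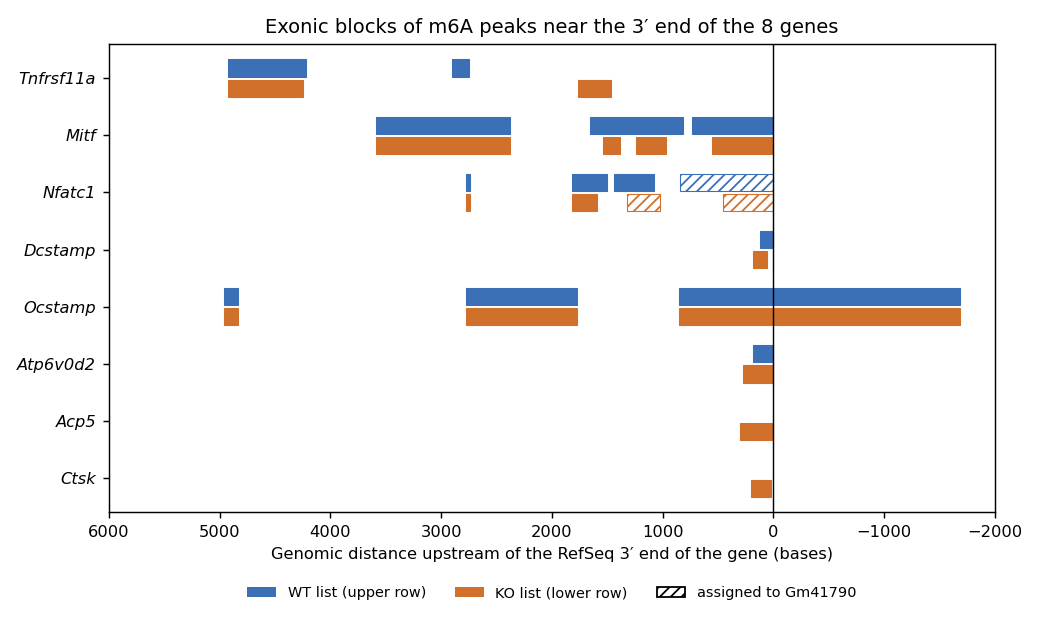
Exonic blocks of WT (blue, upper row) and KO (orange, lower row) peaks from 6000 bases before to 2000 bases beyond the RefSeq 3′ end of each gene (0 on the horizontal axis, genomic bases, introns included); hatched blocks were assigned to Gm41790. Peaks of Atp6v0d2, Acp5 and Ctsk sit at the gene's end, those of Mitf extend over several kilobases, and the Tnfrsf11a peaks lie upstream.

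Dcstamp and Ocstamp encode the transmembrane proteins DC-STAMP and OC-STAMP, which osteoclast precursors need in order to fuse. Both had peaks in both lists and neither had a differential peak. Dcstamp (ENSMUSG00000022303) lies on chromosome 15 from 39745930 to 39760938 on the plus strand. Its larger peak, annotated to the 5′ UTR, ran from 39746139 to 39754733 in WT (989 exonic bases, 3.97-fold) and from 39749420 to 39754853 in KO (809 bases, 5.31-fold), with 689 bases in common. Near the 3′ end of Dcstamp each list had a peak of 121 bases, 3.74-fold in WT and 2.19-fold in KO, and these shared 61 bases. Both had false discovery rates above 0.05 (0.148 and 0.074).

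Ocstamp (ENSMUSG00000027670), on chromosome 2 from 165395450 to 165400394 on the minus strand, had the highest KO enrichment of the 8 genes on the least specific kind of peak. In both lists a single peak ran from 165393760 to 165400405 and covered 3657 exonic bases. That is the assigned Ensembl transcript from its first to its last base, so the peak marks no position within the mRNA. Such peaks made up 2.13% of the WT list and 1.36% of the KO list. The enrichment was 12.2-fold in WT with a false discovery rate of 0.011 and 24.8-fold in KO with a false discovery rate of 1.10e-05. The peak runs 1690 bases past the end that RefSeq gives the gene. The input level of Ocstamp was not analysed here, so the number of reads behind these ratios is not known. The Mitf WT peak, at 9.63-fold over 1558 bases, had a false discovery rate of 1e-234. Beside it the Ocstamp fold in WT has weak support for its size and length.

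Atp6v0d2 encodes the d2 subunit of the vacuolar proton pump, which acidifies the resorption space and also takes part in fusion. It was by far the most abundant of the 8 genes with a listed level, and it had a lower input level and a higher m6A ratio in KO. The ratio and the level share the input libraries, and the input difference did not pass the authors' test. Cd9, Atp6v1b2, S100a8, S100a9, Itgax and Lyz2 had the same pairing, so it is not particular to Atp6v0d2. The gene (ENSMUSG00000028238) lies on chromosome 4 from 19876838 to 19922566 on the minus strand. Its only peak lay at the last bases of the transcript: from 19876841 to 19877020 in WT (180 bases, 1.65-fold) and from 19876841 to 19877110 in KO (270 bases, 2.36-fold). The WT peak lay wholly inside the KO peak, and both ended 3 bases short of the gene's end. The differential peak (19876841 to 19877050) stood at 0.40 in the authors' deposited table, 1.32 times WT, with a false discovery rate of 2.45e-07.

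Acp5, the tartrate-resistant acid phosphatase used to stain osteoclasts, and Ctsk, the collagen-degrading cathepsin K, had peaks in the KO list only. Among all genes with a peak in either list, 24.2% were in the KO list only. Acp5 (ENSMUSG00000001348) lies on chromosome 9 from 22126727 to 22135746 on the minus strand. Its peak, from 22126727 to 22127025, reached the last base of the gene and was 1.88-fold enriched with a false discovery rate of 0.00015. Ctsk (ENSMUSG00000028111) lies on chromosome 3 from 95499210 to 95509387 on the plus strand, and its peak from 95509184 to 95509362 ended 25 bases before the gene's end, at 2.72-fold and a false discovery rate of 0.00065. The other peak named for Ctsk, from 95497060 to 95497240 at 5.31-fold, lay upstream of the gene, at the end of its neighbour Arnt (95434367 to 95497240). Of all KO peaks assigned to 1 gene, 17.3% lay outside that gene's RefSeq extent, as did 15.1% of WT peaks. The Ctsk peak in Arnt is therefore not counted as evidence of m6A in Ctsk mRNA. Neither gene had an entry in the differential table, so presence in the KO list is not shown to differ from absence in the WT list.

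Some peaks reached the end of the gene. Within 50 bases of the RefSeq 3′ end were 3 of the 14 WT peaks (Mitf, Dcstamp and Atp6v0d2) and 4 of the 15 KO peaks (Mitf, Atp6v0d2, Acp5 and Ctsk). Over the whole lists, of peaks lying in the assigned gene, 17.1% did so in WT and 22.2% in KO. The members' shares (21.4% and 26.7%) are near these and are no result about the 8 genes. The 26.7% counts the Ctsk peak that lies in Arnt, a kind of peak left out of the whole-list shares. The distance was chosen after these values were seen. In the authors' deposited table, 3′ UTR peaks that ended there were higher in KO in 62.8% of 1061 cases, and other 3′ UTR peaks inside the assigned gene in 20.9% of 2193. Of the members, the Atp6v0d2 peak at the gene's end was higher (0.40) and the Mitf peak, 600 bases long in the authors' deposited table, was lower (-0.36). These shares varied with the transcript's level: where the mean input was at least 6.40 FPKM, the median over differential peaks, 71.7% of peaks at the gene's end and 26.2% of the others were higher, and below that level 30% and 16.2%. Atp6v0d2 and Mitf both lie above that level. These shares of the authors' deposited table come from 1 library pair per genotype, and their difference was not tested.

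The other genes of the osteoclast pathway were taken from 7 lists by role, 80 genes beside the 8. Of these 80, 52 had a WT peak and 60 a KO peak. Differential peaks numbered 52 in 38 genes. By the authors' deposited table, peaks lower in KO were 30 and higher 22, with 27 and 21 at a false discovery rate under 0.05. The higher ones include overlapping peaks named for Ptpn6 that lie in Grcc10, and a peak named for Src that lies in Manbal. The median log2 ratio of the 52 peaks was -0.26, against -0.40 over the authors' deposited table, and 57.7% of them were lower, beside 69.6% of that table.

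Among receptors and co-receptors other than Tnfrsf11a, the authors' deposited table had 2 lower and 4 higher peaks (33.3% lower, beside 69.6% of all its peaks). Pira2, a paired immunoglobulin-like receptor, had the lowest ratio, -1.32 in the authors' deposited table, and belongs to a family of near-identical genes, so its reads are uncertain. Sirpb1a stood at -0.49 with a false discovery rate of 0.060 in the authors' deposited table. The adaptors Tyrobp (DAP12) and Fcer1g, which pair with activating receptors in osteoclast precursors, stood at 0.37 and 0.18, and the integrin subunit Itgav at 0.92, in the authors' deposited table. All 3 of these higher peaks ended at the gene's end. The peaks named for Csf1r, the M-CSF receptor, lay in its neighbour Pdgfrb in both lists.

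Of 13 peaks in signalling genes downstream of RANK, the authors' deposited table gave 10 as lower and 3 as higher (76.9% lower, beside 69.6%). The calcineurin subunit Ppp3ca, which acts on NFATc1, stood at -0.79 in the authors' deposited table. The phosphoinositide 3-kinase subunit Pik3r1 stood there at -0.73 and -0.50, and Traf6, the adaptor that RANK recruits, at -0.24 (the authors' deposited table). The kinase Syk had peaks at -0.42, -0.40 and -0.32 along the mRNA and 1 at 0.41 at the gene's end in the authors' deposited table. The ubiquitin ligase Cbl stood at 0.70 in the authors' deposited table, also at the gene's end. A higher peak named for the kinase Src (0.50 in the authors' deposited table) lay in Manbal, and the peak within Src stood at -0.27 with a false discovery rate of 0.059.

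In the list of activating transcription factors 10 of 11 peaks were lower (90.9%, beside 69.6% of all peaks in the authors' deposited table), and 4 of the 10 belong to Mitf. Beside Mitf and Nfatc1 the list held 6 differential peaks, each lower in KO by the authors' deposited table and 4 of them below its median. Fos, an AP-1 subunit without which osteoclasts do not form, stood at -0.86, Fosl2 at -0.78 and Spi1 (PU.1) at -0.68 in the authors' deposited table. Prdm1 stood at -0.47, Junb at -0.36 and Jun at -0.16 in the authors' deposited table. The Nfatc1 peak was the only higher one of the 11 in this list, and it missed a false discovery rate of 0.05.

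For factors that restrain osteoclast formation, the authors' deposited table gave 7 lower peaks and 5 higher (58.3% lower, beside 69.6% of all its peaks). The calcineurin inhibitor Rcan1 had a log2 ratio of -0.65 and the transcription factor Irf8 one of -0.43 by the authors' deposited table. The highest, 1.04 and 0.99 under the name of the phosphatase Ptpn6, lay in Grcc10, and the peak within Ptpn6 stood at 0.46 in the authors' deposited table. The peaks in Grcc10 overlap each other, so they are not separate sites, and neither lies in a restraining factor. Both are counted among the 5 higher peaks. Without them the share of lower peaks is larger and closer to that of all peaks. In the fusion list, beside Atp6v0d2, Sirpa had lower peaks at -0.25, -0.36 and -0.30 and a higher peak of 0.62 at the gene's end, and the tetraspanin Cd9 had 1 at 0.42 in the authors' deposited table.

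Acid secretion and vesicle traffic held higher peaks alone: 6 of 6 were higher in KO with Atp6v0d2, 5 of 5 without it, beside 30.4% of the whole list in the authors' deposited table. In input 2 of the 6 genes were higher in KO and 4 lower, beside 67.8% of all listed genes higher. The proton pump subunits Atp6v0d1 (0.66) and Atp6v1b2 (0.58), the accessory protein Atp6ap2 (0.62), and Tcirg1 (0.34), the pump subunit mutated in infantile osteopetrosis, all had peaks in the 3′ UTR in the authors' deposited table. Of the 6 peaks 4 ended at the gene's end, and all 6 genes had a mean input above 6.40 FPKM. The 30.4% takes in peaks of every position and level. From 6.40 FPKM upwards, a positive ratio was found for 71.7% of 3′ UTR peaks at the gene's end. For other 3′ UTR peaks in the gene that share was 26.2%. Beside 71.7%, 4 of 4 is a smaller contrast, and it was not tested. Slc4a2, a chloride-bicarbonate exchanger, stood at 0.60 in its 5′ UTR with a false discovery rate of 0.062 in the authors' deposited table. Matrix-degrading genes beside Acp5 and Ctsk had 2 lower peaks and 3 higher by the authors' deposited table (40% lower, beside 69.6% of all its peaks). These were the cathepsin Ctsb at -0.28, 0.54 and 0.30, the cathepsin inhibitor Cst3 at 0.57, and the membrane metalloprotease Mmp14 at -0.35.

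**Figure D3:**
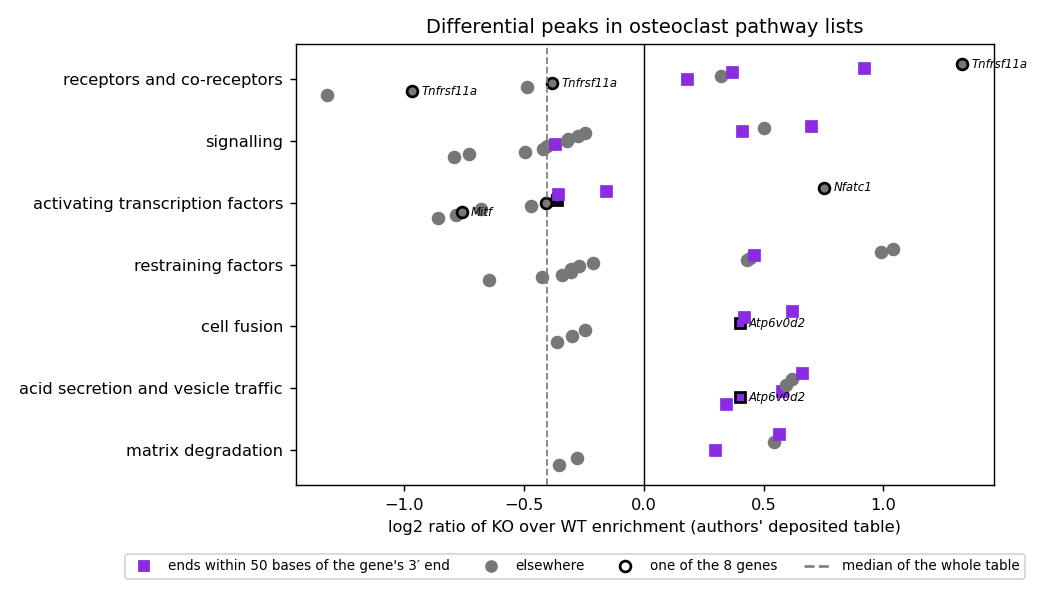
Log2 ratio of KO over WT enrichment (horizontal axis, authors' deposited table) of each differential peak in 7 osteoclast pathway lists, with purple squares for peaks that end within 50 bases of the gene's 3′ end, grey circles for others, black rims for the 8 genes, and a dashed line at the table's median (-0.40). Purple squares are mostly right of 0 (14 of 18) and grey circles mostly left of it (32 of 43), with each peak counted one time where a gene stands in more than 1 list. Over the whole table, 62.8% of 3′ UTR peaks at the gene's end and 20.9% of other 3′ UTR peaks in the gene were higher in KO.

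The 88 genes of these lists were also divided by position at the gene's end. By the authors' deposited table, 14 of 18 differential peaks at the gene's end were higher in KO, and 11 of the 43 others, which here include peaks in exons, in 5′ UTRs and outside the named gene. The 4 lower ones at the gene's end were those of Mitf, Jun, Junb and Mapk14. Of the 14 pathway genes named in the KO list only, 12 had a peak within the gene and 9 of these had one at its end, among them Acp5, Ctsk, Car2, Ostm1, Atp6v0d1, Atp6v1b2 and Atp6v1c1. Over all genes of the KO list only with a peak in the gene, 36.8% had one at the gene's end, and over genes of both lists 38.6%.

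Input levels were listed for 4 of the 8 genes, those with a differential peak. Atp6v0d2 was at 274 FPKM in the WT library and 201 in the KO library, Mitf at 13.7 and 14.7, Tnfrsf11a at 10.7 and 10.8, and Nfatc1 at 7.00 and 8.34. The order of the 4 levels was the same in both libraries, and Mitf, Tnfrsf11a and Nfatc1 lay close together there. Atp6v0d2 was above 98.8% of the 4403 listed genes in WT and 98.4% in KO.

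Of the 4 genes, 3 were higher in KO input and 1 lower, beside 67.8% of all listed genes higher. On the log2(FPKM + 1) scale the KO minus WT difference was -0.45 for Atp6v0d2, 0.22 for Nfatc1, 0.09 for Mitf and 0.01 for Tnfrsf11a, against a median of 0.06 over the listed genes. Only 1.32% of listed genes had a lower difference than Atp6v0d2. Over the 42 pathway genes with a listed level 28 were higher and 14 lower, which is near the 67.8% of all listed genes and no result about the pathway. All 8 activating transcription factors with a level were higher, with Fos at 9.10 FPKM in WT and 16.9 in KO (0.82) and Fosl2 at 0.30. Against the median of listed genes (0.059) this did not hold for all 8, since Jun stood at 0.058. Other differences were 0.31 for Pik3r1, 0.29 for Mmp14, 0.27 for Itgav, 0.24 for Sirpb1a, 0.17 for Rbpj and for the kinase Lyn, 0.04 for Ctsb, -0.17 for Atp6v1b2, -0.19 for Src and -0.30 for Cd9. The adjusted p of the input difference was 1 for each of the 4 in the authors' deposited table, and the unadjusted p was 0.427 for Atp6v0d2, 0.779 for Nfatc1, 0.961 for Mitf and 0.934 for Tnfrsf11a. None of these differences passed the authors' test.

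Neutrophil and dendritic cell markers were, like Atp6v0d2, lower in KO input. Of 7 neutrophil markers 2 had a listed level, S100a8 and S100a9, and their summed level was 233 FPKM in WT and 137 in KO. Of 6 dendritic cell markers only Itgax had one, at 71.9 and 46.7. None of 8 stromal and osteoblast markers had a listed level. Of 10 macrophage markers 6 had one, 4 of them higher and 2 lower in KO, and their summed level was 12093 and 8236, of which Lyz2 made up 10533 and 6615. In these bulk libraries fewer cells of a type and less RNA per cell cannot be told apart, and the part of these cells in the Atp6v0d2 level was not tested. Only the KO cells carry Cre under the Lyz2 promoter. For Lyz2, and so for the macrophage sum, the Cre allele and loss of Mettl3 cannot be told apart either.

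The genes most like Atp6v0d2 in input level were Anxa1, Vim and Cd9, by Euclidean distance on the log2(FPKM + 1) scale over the 2 input libraries. Anxa1, the anti-inflammatory annexin A1, was at 274 FPKM in the WT library and 197 in the KO library (distance 0.027). Vim, the intermediate filament vimentin, stood at 249 and 204 (0.140), and Cd9 at 298 and 241 (0.288). With 2 points this likeness says no more than that the levels are close.

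**Figure D4:**
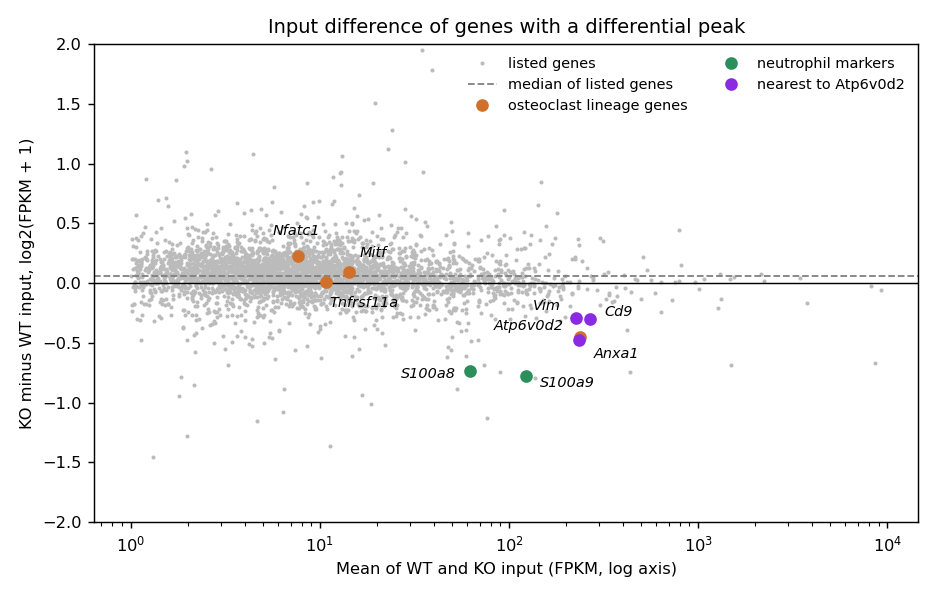
KO minus WT input on the log2(FPKM + 1) scale (vertical axis, from -2 to 2, with 3 more genes beyond it) against the mean of both inputs (horizontal log axis) for 3676 listed genes whose mean reached 1 FPKM; members in orange, neutrophil markers in green, the genes nearest to Atp6v0d2 in purple, dashed line at the median. Atp6v0d2 lies at -0.45 near Anxa1, Mitf (0.09) and Tnfrsf11a (0.01) lie near the median of 0.06, and Nfatc1 lies above it at 0.22.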

How the data were processed

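Peaks and levels were used as deposited by the authors. Build mm10 and the tools edgeR, StringTie, ChIPseeker, HOMER, HISAT2 and fastp are named in the submitters' processing notes, with no role for any. The peak caller was not given in these sources. Per the file headers, each genotype's list gives per peak the fold of IP over input (a ratio), a p-value and the log10 of p and of the false discovery rate (negative scores). The deposited differential table gives a log2 ratio of KO over WT with its p-value, and holds only peaks with p under 0.05. Input FPKM is deposited there for genes with a differential peak. Nothing was pooled, and no sample column went unused.

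The members and lists were chosen with earlier results of these data known. Named genes were all 8 members and, per pathway list, the 3 largest ratios and 2 largest input differences; others were chosen after their values were seen. A result that the rule would name is not reported here. Tm7sf4, an older symbol of Dcstamp, was dropped. Starts in the lists count from 0, since the blocks of each peak add up that way, and were printed from 1. Overlap was computed on exonic blocks without regard to strand, with a minimum of 1 base, by code tested on simulated data. Gene extents are RefSeq's (GRCm38.p6). Input differences are log2(FPKM + 1), which understates those of low genes. With 1 library per group no test was run. Python 3.11.15, numpy 2.4.6, pandas 2.3.3 and matplotlib 3.10.9 were used.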

Additional observations from a re-analysis of the deposited data

How the results depend on the processing

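Counts of weak peaks depend on the threshold. With at least 4-fold enrichment 3 WT and 6 KO peaks were named for the 8 genes, 1 of the 6 being the peak in Arnt, and where the peak's p was at most 1e-10 there were 6 and 4, so the order of the genotypes turned between these settings. Counted by position in the gene, a choice made after seeing the data, they held 15 and 16. With reciprocal overlap of 50%, 8 of the 14 WT and 7 of the 15 KO peaks were shared. Of the 6 lower and 3 higher differential peaks, 0 and 1 had a log2 ratio of at least 1 in absolute value, and relative to the median of the authors' deposited table, 3 were lower and 6 higher. At a false discovery rate under 0.05, 6 and 2 were left. Of the pathway peaks 36 were lower, 33 at that rate and 16 below the table's median. The Tnfrsf11a input difference turned to -0.046 once the median of listed genes was subtracted, and that of Mitf moved to 0.035, while Nfatc1 (0.16) and Atp6v0d2 (-0.51) kept their direction. A pseudocount of 0.1 gave -0.45 for Atp6v0d2, and a minimum of 1 FPKM removed none of the 4 genes. With the gene's end taken as 20 or 200 bases, distances chosen after seeing the data, 14 of 18 and 16 of 20 pathway peaks there were higher. Over all 3′ UTR peaks at the gene's end in the authors' deposited table, the shares were 63.7% and 62.2%. No paired analysis was possible because each group has 1 library.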

Other observations

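Among the macrophage markers outside the osteoclast genes, Fcgr1, the high-affinity receptor for immunoglobulin G, had a log2 ratio of -0.70 in the authors' deposited table, with input at 40.6 FPKM in WT and 58.4 in KO. Cd14, the co-receptor for lipopolysaccharide, stood at -0.26 in the authors' deposited table, with input at 153 and 198. Both peaks ended at the gene's end. Lyz2, the lysozyme gene whose promoter drives Cre here, stood at 0.47 in the authors' deposited table, with input at 10533 and 6615, and its peak ran past the RefSeq end of the gene. Adgre1 stood at 0.54 in the authors' deposited table at the gene's end. The peak named for Cd68 (0.49 in the authors' deposited table) lay in its neighbour Eif4a1.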
